A study of Mus musculus with 22 samples.

Results

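Cytochrome P450 genes were examined in the kidneys of mice given cisplatin, KW6002 or both. Members were the listed genes whose mouse symbol follows the P450 pattern (Cyp, family number, subfamily letter, gene number), leaving out Cyp27b1 and Cyp24a1, with 10 or more counts in 5 or more of the 22 libraries. Of 32858 genes listed, 77 had such a symbol and 45 of these passed the count rule. The 32 others had too few counts and entered no comparison. The members were 10 epoxygenases, 13 fatty acid hydroxylases, 11 hydroxylases of the CYP2 and CYP3 families, 4 sterol and bile acid enzymes, 3 vitamin A and D enzymes, 2 CYP1 genes, 1 gene of steroid hormone synthesis and 1 gene with no settled role.

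P450 enzymes are haem proteins that insert oxygen into lipids, hormones, vitamins and drugs, drawing electrons from NADPH through partner proteins. In the kidney many of them are made in the proximal tubule, where some CYP4 enzymes hydroxylate arachidonic acid to a vasoactive lipid and CYP2C and CYP2J enzymes convert it to epoxides. Cisplatin, a platinum drug used against solid tumours, injures the same tubule segment, and KW6002 (istradefylline) is an adenosine receptor antagonist.

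The mice were male C57Bl6/J animals of 8 to 10 weeks. The vehicle group (n = 5) was given the carrier of KW6002, a mix of DMSO, cremophor and saline. The KW6002 group (n = 6) was given 3 mg/kg intraperitoneally each day from day -5 to day 7. The cisplatin group (n = 5) was given 3 mg/kg intraperitoneally in 6 daily injections from day 0, and the co-treated group (n = 6, spelled Cisplatine + KW6002 in the labels) was given both drugs. Kidneys were taken on day 8, 72 h after the last cisplatin injection. Bulk kidney RNA was sequenced, so fewer cells of a type and less RNA per cell cannot be told apart.

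Libraries held 26471762 to 40510754 counts. Levels are given as CPM, counts per 1000000 after scaling by trimmed mean of M values (TMM), and levels of different genes are compared as CPM per kilobase of exon. The 10 proximal tubule markers, such as Slc34a1 and Lrp2, summed to 21128 to 22443 CPM in vehicle, 20611 to 22462 in KW6002, 3781 to 5893 in cisplatin and 8681 to 12928 in co-treated kidneys. The injury markers Havcr1 and Lcn2 summed to 5.29 to 7.02 CPM in vehicle, 1125 to 2135 CPM in cisplatin and 298 to 652 CPM in co-treated kidneys. Co-treated replicate 6 stood apart: it held 323 counts of Cyp11a1, 542 of Cyp11b1 and 508 of Cyp21a1, adrenal steroid enzymes that had at most 4 counts in any other library, and the adrenal markers that are not P450 genes summed to 57.6 CPM there against at most 16.3 CPM elsewhere. Among the co-treated libraries it also had the highest sum of proximal tubule markers, 12928 CPM, and the lowest Havcr1, 61.7 CPM.

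In vehicle kidneys the highest P450 level per kilobase was that of Cyp4b1, a hydroxylase of fatty acids and foreign compounds, at 1453 ± 67.6 CPM per kb (SD, n = 5). Cyp2j5, a renal arachidonic acid epoxygenase, followed at 785 ± 50.1 and Cyp2e1, an ethanol-inducible oxidase, at 711 ± 104 CPM per kb. The ranges of Cyp2j5 and Cyp2e1 overlapped, whereas Cyp4b1 lay above both. The next were the omega-hydroxylases Cyp4a14 and Cyp4a10, at 263 ± 55.8 and 246 ± 31.4 CPM per kb, which overlapped each other. Cyp4a10 shared 29.8% of its transcript with other genes and Cyp4a14 0.235%. Reads from shared sequence were not counted, so the order of these genes is uncertain. At the other end Cyp17a1, an enzyme of steroid hormone synthesis, stood at 0.0862 ± 0.0318 CPM per kb. With cisplatin the order changed, and Cyp4a14 stood highest at 1352 ± 148 CPM per kb, with Cyp4b1 at 239.7 ± 25.7. The summed level of the 45 members was 10292 ± 221 CPM in vehicle, 9880 ± 520 in KW6002, 7133 ± 697 in cisplatin and 8111 ± 1151 in co-treated kidneys.

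Some members share transcript sequence with related genes, which bears on how their counts can be read. It was measured as the share of transcript words, each as long as a read, that also occur in other annotated genes. For Cyp2c68, Cyp2c69, Cyp4a32 and Cyp2a4 it is given with their levels. Among the other members it was 37.0% for Cyp2a5, 29.8% for Cyp4a10, 21.8% for Cyp2d9, 20.6% for Cyp4a31 and 17.4% for Cyp4f16. The next was Cyp2u1, at 12.3%. The promoter stretches printed here lie before the annotated genes and do not bear on the counts. Promoter sequence of Cyp2c68 (chr19:39741132-39741351, minus strand) and Cyp2c69 (chr19:39886800-39887019, minus strand), 220 bases of each from RefSeq on GRCm38.p6, ending 31 bases before the start site, is shown because these genes had the lowest counts after cisplatin. The stretches were 92.4% identical over 223 aligned columns, with 11 substitutions and 6 gap columns. Capitals mark CAAAGTCCA, the HNF4 letters searched for.
Cyp2c68: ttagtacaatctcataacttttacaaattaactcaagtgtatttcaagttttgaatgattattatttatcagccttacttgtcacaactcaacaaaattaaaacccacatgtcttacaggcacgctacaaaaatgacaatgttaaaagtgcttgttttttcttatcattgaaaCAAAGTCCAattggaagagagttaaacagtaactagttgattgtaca
Cyp2c69: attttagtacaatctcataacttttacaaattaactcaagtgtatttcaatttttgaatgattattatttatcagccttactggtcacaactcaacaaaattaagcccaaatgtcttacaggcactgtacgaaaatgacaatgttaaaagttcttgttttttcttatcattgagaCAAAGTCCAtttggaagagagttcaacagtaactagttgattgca

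The 216 bases of Cyp2a4 (chr7:26306942-26307157, plus strand) and Cyp2a5 (chr7:26835089-26835304, plus strand) are from the same source and end 35 bases before the start site. They are shown because the ratio of the levels of this pair in co-treated kidneys differed from that in the other groups. They were 97.2% identical over 217 aligned columns. Capitals mark aligned differences, among them 4 substitutions.
Cyp2a4: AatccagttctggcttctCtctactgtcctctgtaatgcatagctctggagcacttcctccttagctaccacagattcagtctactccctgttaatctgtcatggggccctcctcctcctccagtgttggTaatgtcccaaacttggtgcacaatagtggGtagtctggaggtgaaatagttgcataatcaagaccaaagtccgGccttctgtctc
Cyp2a5: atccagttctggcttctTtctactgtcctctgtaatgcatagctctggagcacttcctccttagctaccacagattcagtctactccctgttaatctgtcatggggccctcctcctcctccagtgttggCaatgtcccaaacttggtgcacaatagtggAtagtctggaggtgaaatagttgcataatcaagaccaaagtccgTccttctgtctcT

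RefSeq promoter windows of 300 bases were at hand for 33 of the 45 members, 37 windows in all. The HNF4 letters, read on both strands, were in 2 of these windows, those of Cyp2c68 and Cyp2c69, and in 0.475% of all 32851 windows. The printed stretches of these 2 genes were 92.4% identical, with the letters starting at -77 and -75, so the 2 matches are not independent. The aryl hydrocarbon receptor letters TNGCGTG were in 1 member window, that of Cyp2c68, and in 5.07% of all windows. The PPAR direct repeat and the HNF1 palindrome were in 0 member windows, and in 0.0396% and 0.00913% of all windows. The matches did not overlap each other, and a match of letters is a description only.

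Cisplatin was compared with vehicle to ask which P450 genes the drug moved. Genes are termed called where the adjusted p was below 0.01 and the log2 change passed 1 in size. Of the 45 members, 30 were called, 10 higher and 20 lower, where 24.1% of all 17131 genes tested were called (12.1% higher and 12.1% lower). At an adjusted p below 0.05 alone, 17 members rose and 24 fell, where 70.5% of all genes passed (34.6% higher and 35.9% lower). The groups did not overlap for 36 members and for 55.3% of all genes. The median log2 change was -0.25 over the members and -0.01 over all genes.

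**Figure D1:**
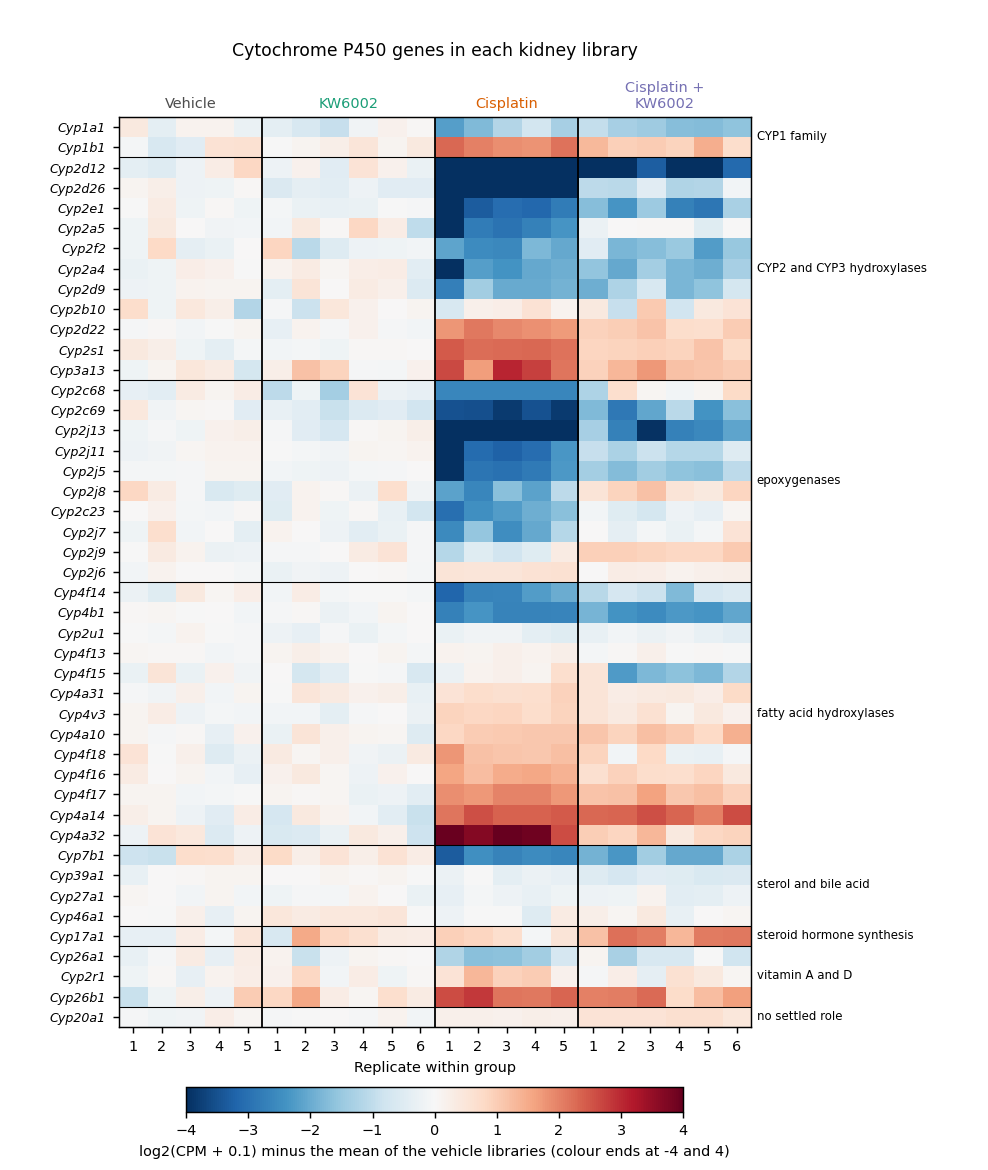
Level of each of the 45 P450 genes (rows, grouped by role) in each of the 22 libraries (columns, replicate number within group), as log2(CPM + 0.1) minus the mean of the vehicle libraries. Most epoxygenases are low (blue) in the cisplatin columns and nearer to vehicle in the co-treated columns, while Cyp4a14 is high (red) in both.

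With KW6002 alone, compared with vehicle by the edgeR fit, 0 of 45 members were called (0.0% of all genes), and 0 passed an adjusted p of 0.05 (0.0175% of all genes). At an unadjusted p below 0.05 there were 2 members, Cyp2c69 and Cyp46a1, where 11.3% of all genes passed. There were 0 members without overlap between the groups (1.39% of all genes), and DESeq2 also called 0 members.

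Co-treated kidneys were compared with cisplatin kidneys to see what the antagonist changed during injury. Here 21 members were called, 16 higher and 5 lower, beside 10.3% of all genes (4.65% higher and 5.66% lower). At an adjusted p below 0.05, 21 rose and 15 fell, beside 55.8% of all genes (28.6% higher and 27.2% lower), and 26 members did not overlap between the groups, beside 37.8%. Without co-treated replicate 6, 20 members were called.

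Against vehicle, 18 members were called in co-treated kidneys, 6 higher and 12 lower, beside 13.4% of all genes (5.83% higher and 7.59% lower). When libraries were scaled by their totals alone the split was 11 higher and 11 lower, with the median of all genes at 0.16 on the log2 scale. At an adjusted p below 0.05, 17 rose and 18 fell, beside 59.7% of all genes (29.8% higher and 29.9% lower), and 27 members did not overlap, beside 37.5%. Without co-treated replicate 6, 20 members were called.

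The KW6002 effect with cisplatin differed from that without it for 19 members, 14 more positive and 5 more negative, where 8.58% of all genes were called (4.24% more positive and 4.33% more negative). At an adjusted p below 0.05 there were 17 and 14, beside 42.7% of all genes (22.8% and 19.9%). These comparisons share vehicle or cisplatin libraries and are not independent. Mice numbered in the 300s gave vehicle and KW6002 replicates 1 to 3 and no cisplatin library. With mice numbered in the 500s alone, 31 members were called with cisplatin, 19 for co-treated against cisplatin, 21 for co-treated against vehicle and 14 for the difference of effects.

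Of the 20 members called lower with cisplatin, 19 were closer to vehicle with co-treatment, and the log2 change from vehicle that remained was a median 40.9% (-28.4% to 107%) of that with cisplatin alone. Against cisplatin 18 of these rose at an adjusted p below 0.05, and 12 of the 20 stayed called lower than vehicle. For the 10 members called higher, a median 49.0% of the change remained (15.6% to 99.2%), 9 fell against cisplatin at an adjusted p below 0.05 and 4 stayed called higher than vehicle. Over all genes tested, the 2068 called lower with cisplatin were closer to vehicle with co-treatment in 90.1% of cases, with a median 55.8% of the change remaining, 68.1% risen against cisplatin at an adjusted p below 0.05 and 47.7% still called lower than vehicle. For the 2069 called higher these values were 93.6%, 55.1%, 77.6% fallen and 41.2%. Most called genes of the whole table thus had a smaller change with co-treatment, P450 genes among them. Both measures use the same vehicle and cisplatin libraries.

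**Figure D2:**
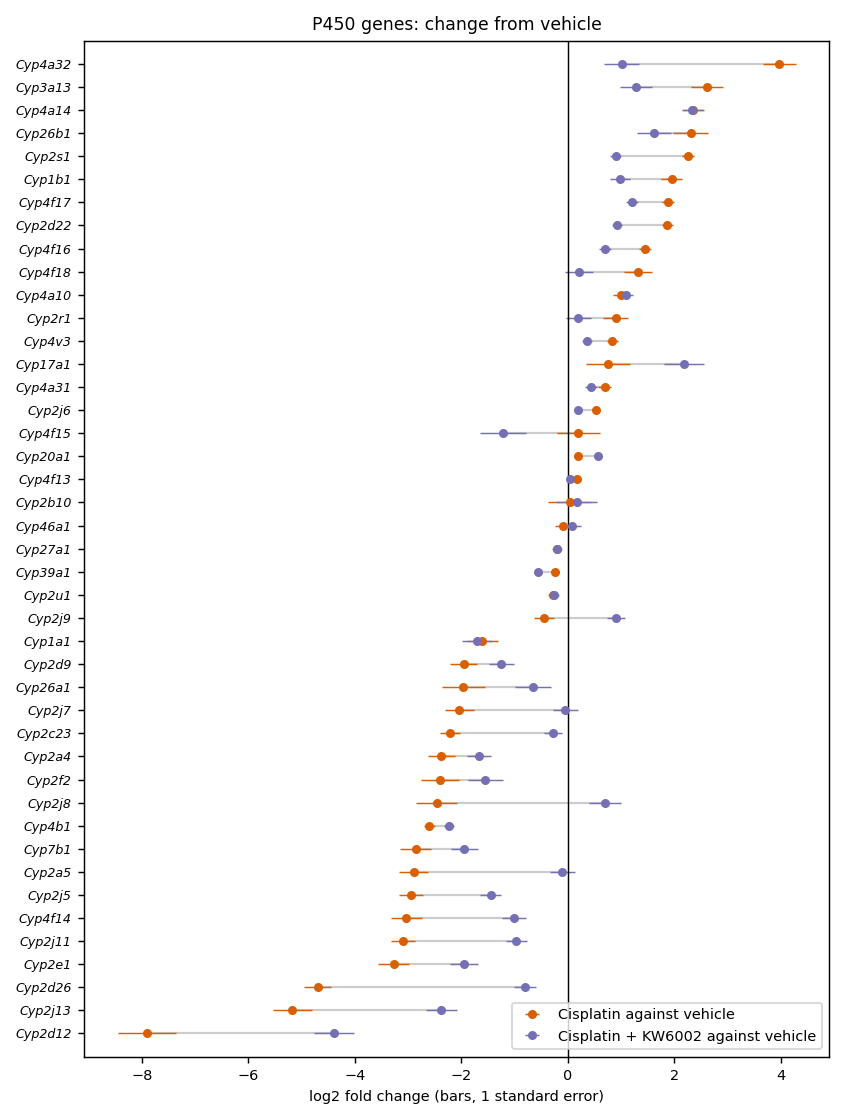
Log2 fold change from vehicle of 43 P450 genes in cisplatin kidneys and in co-treated kidneys, with bars of 1 standard error from the edgeR fit. Cyp2c68 and Cyp2c69 are left out because the cisplatin libraries held 0 and 3 counts of them. Cyp2d12 lies lowest in both comparisons, at -7.91 and -4.39, and Cyp4a32 highest with cisplatin, at 3.97.

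Of the 10 epoxygenases, 8 were called lower with cisplatin and 0 higher, beside 12.1% of all genes in each direction. Cyp2j9 fell by 0.45 on the log2 scale, a change that lost the threshold in 10 of 31 alternatives, and Cyp2j6 rose by 0.53. In co-treated kidneys 9 of the 10 were called higher than with cisplatin, beside 4.65% of all genes. The groups did not overlap for any of the 10, beside 37.8% of all genes. Beside these counts, 9 of 10 proximal tubule markers were called lower with cisplatin (median log2 change -2.92) and 6 higher for co-treated against cisplatin (median 1.75). The part of tubule cell content in the epoxygenase levels was not tested.

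Cyp2j5 (chr4:96628773-96664154) had 1749, 1744, 1776, 1966 and 1974 CPM in the vehicle libraries and 92.6, 242, 231, 258 and 371 CPM in the cisplatin libraries. In co-treated kidneys its lowest, median and highest levels were 556, 651 and 883 CPM, and in KW6002 kidneys 1597, 1728 and 1877 CPM. The vehicle, cisplatin and co-treated groups did not overlap, with cisplatin replicate 1 the lowest of all. Its log2 change was -2.95 (SE 0.22, adjusted p 4.76e-11) with cisplatin and 1.49 (SE 0.20, adjusted p 1.83e-06) for co-treated against cisplatin kidneys.

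Cyp2j13 and Cyp2j11 belong to the same chromosome 4 cluster of epoxygenase genes. Cyp2j13 read 314, 338, 314, 396 and 412 CPM in vehicle and 6.71, 8.46, 9.08, 9.09 and 15.9 CPM in cisplatin libraries, 36.1-fold lower (adjusted p 1.44e-11). Co-treated libraries ranged from 22.6 to 139.9 CPM, above each cisplatin library and below each vehicle library. Cyp2j11 fell 8.54-fold, from 248 ± 27.8 to 29.1 ± 13.2 CPM (SD, n = 5), and stood at 127 ± 25.7 CPM (n = 6) in co-treated kidneys.

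Cyp2j8 and Cyp2j9 were at or above vehicle levels in co-treated kidneys. Cyp2j8 had 1.52, 1.04, 0.773, 0.493 and 0.553 CPM in vehicle, 0.107, 0.0502, 0.186, 0.107 and 0.340 CPM in cisplatin libraries, and 1.08, 1.38 and 1.95 CPM (lowest, median, highest) in co-treated libraries. The cisplatin libraries held 4, 2, 7, 4 and 12 counts of Cyp2j8, so its level there rests on few counts. The co-treated group lay above the cisplatin group and overlapped with vehicle. Its change was -2.47 (SE 0.39, adjusted p 6.91e-06) on the log2 scale with cisplatin and 0.70 (SE 0.30, adjusted p 0.0473) for co-treated against vehicle, where the threshold was lost in 15 of 30 alternatives. The change of co-treated from vehicle was 0.55 to 1.44 over these alternatives. The 2 vehicle mice numbered in the 500s, the series of all co-treated mice, read 0.493 and 0.553 CPM of Cyp2j8, below each co-treated library. Cyp2j9 read 42.1 ± 2.39 CPM (n = 6) in co-treated, 16.5 ± 6.66 CPM in cisplatin and 22.5 ± 3.94 CPM in vehicle kidneys (SD, n = 5 each), a log2 change from vehicle of 0.91 (SE 0.18, adjusted p 0.000125) with co-treatment. Cyp2c23, the main renal epoxygenase of its family, and Cyp2j7 fell by 2.21 and 2.04 on the log2 scale with cisplatin. With co-treatment their changes from vehicle were -0.28 (adjusted p 0.171) and -0.04 (adjusted p 0.887).

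Cyp2c68 had 12, 9, 20, 16 and 20 counts in the vehicle libraries and 0 counts in all 5 cisplatin libraries, at least 33.3-fold lower with a floor of 3 counts over the group. It had 5 to 33 counts in co-treated libraries, at least 37.2-fold above cisplatin with the same floor. Cyp2c69 had 56, 30, 42, 39 and 29 counts in vehicle and 3 counts in all in the cisplatin libraries, 84.7-fold lower (interval of counting error 28.6 to 414). In co-treated libraries it had 58 counts in all, 18.4-fold above cisplatin with an interval from 6 to 91.9. Of the 50-base words of the Cyp2c69 and Cyp2c68 transcripts, 54.3% and 43.3% occurred in other annotated genes, and reads there were left out by unique alignment. Both genes are near or at the floor with cisplatin, so their levels there are limits of depth.

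**Figure D3:**
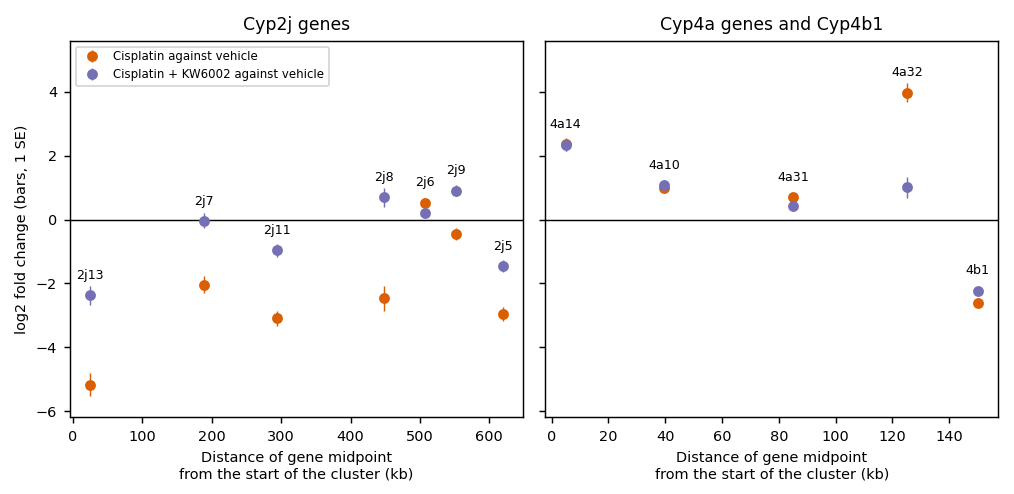
Log2 fold change from vehicle in cisplatin and co-treated kidneys for neighbouring genes on chromosome 4, by distance in kilobases, with bars of 1 standard error. In the Cyp2j cluster the cisplatin points lie below 0 except that of Cyp2j6, at 0.53. The 4 Cyp4a genes plotted lie above 0 while Cyp4b1, the next gene, lies at -2.60 with cisplatin.

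The fatty acid hydroxylases moved both ways. With cisplatin 5 of 13 were called higher and 2 lower, beside 12.1% of all genes in each direction. At an adjusted p below 0.05 there were 9 higher and 3 lower, beside 34.6% and 35.9% of all genes. On chromosome 4 the omega-hydroxylase genes Cyp4a14, Cyp4a10, Cyp4a31 and Cyp4a32 rose with cisplatin, and Cyp4b1, which lies 3.12 kb from Cyp4a32, fell. Not every Cyp4a gene rose: Cyp4a12a, an omega-hydroxylase whose symbol the pattern leaves out, fell by 2.81 on the log2 scale (SE 0.32, adjusted p 6.49e-08) with cisplatin, and its near-copy Cyp4a12b was at 0.43 (SE 0.15, adjusted p 0.0162). Reads that align to both copies were not counted, and the sequence they share was not measured.

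Cyp4a14 read 792, 726, 586, 487 and 834 CPM in vehicle and 2970.5, 4017, 3446, 3449 and 3700.1 CPM in cisplatin libraries. Its co-treated libraries had a lowest, median and highest level of 2741, 3355 and 4057 CPM. Both cisplatin-treated groups lay above vehicle and overlapped each other. It rose by 2.36 on the log2 scale (SE 0.20, adjusted p 3.95e-10) with cisplatin, and the change for co-treated against cisplatin was -0.02 (SE 0.18, adjusted p 0.938). Cyp4a10 rose by 1.00 on the log2 scale (SE 0.14, adjusted p 1.93e-06) with cisplatin and by 1.09 on the log2 scale (SE 0.14, adjusted p 6.95e-07) in co-treated kidneys against vehicle.

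Cyp4a32 had 0.291, 0.561, 0.504, 0.211 and 0.293 CPM in vehicle and 6.92, 5.72, 7.32, 6.55 and 2.69 CPM in cisplatin libraries. In co-treated libraries it read 0.493, 0.733 and 1.03 CPM at the lowest, median and highest, which overlapped with vehicle and lay below cisplatin. The difference from vehicle with cisplatin was 3.97 (SE 0.30, adjusted p 6.88e-11) on the log2 scale, and that of co-treated against cisplatin kidneys was -2.96 (SE 0.26, adjusted p 2.47e-09). Its transcript shared 43.8% of 50-base words with other genes, 32.6% with Cyp4a10, so its counts are uncertain.

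Cyp4b1 read 3367, 3435, 3267, 3292 and 3033 CPM in vehicle and 500.1, 642, 513, 517 and 530.8 CPM in cisplatin libraries. With co-treatment the lowest, median and highest levels were 572, 655 and 903 CPM, which overlapped with cisplatin and lay below vehicle. It fell by 2.60 on the log2 scale (SE 0.11, adjusted p 2.26e-15) with cisplatin and was higher in co-treated than in cisplatin kidneys by 0.37 on the log2 scale (SE 0.10, adjusted p 0.0024). In the Cyp4f family, Cyp4f17, Cyp4f16 and Cyp4f18 were called higher with cisplatin, by log2 changes of 1.88, 1.45 and 1.32. Cyp4f14, a leukotriene omega-hydroxylase, was called lower, from 1.55 ± 0.399 to 0.188 ± 0.0893 CPM (SD, n = 5), and stood at 0.771 ± 0.230 CPM (n = 6) with co-treatment. The cisplatin libraries held 3 to 11 counts of Cyp4f14.

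Cyp4f15 was called lower in co-treated than in cisplatin kidneys, at a log2 change of -1.42 (SE 0.41, adjusted p 0.00566). Co-treated replicate 1 had 1.25 CPM (39 counts) and the other co-treated libraries 0.0941 to 0.315 CPM (3 to 11 counts). Without replicate 1 the log2 change was -2.32 (adjusted p 6.91e-07), and without replicate 6 it was -1.38 (adjusted p 0.0122), which is not a call. Fat markers were highest among co-treated libraries in the same replicate 1, at 374 CPM in sum against a lowest of 40.8 CPM. Of the 6 fat markers, 4 were called lower for co-treated against cisplatin, beside 5.66% of all genes. Their part in the result was not tested.

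Among the 11 hydroxylases of the CYP2 and CYP3 families, which oxidise drugs and steroids, 7 were called lower and 3 higher with cisplatin. Of all genes tested, 12.1% were called in each direction. Cyp2e1 had 1502, 1899, 1355, 1561 and 1352 CPM in vehicle and 62.8, 153, 186, 174 and 218 CPM in cisplatin libraries. Co-treated libraries read 205, 381 and 614 CPM at the lowest, median and highest. They overlapped with cisplatin and lay below vehicle. The fall with cisplatin was 3.27 on the log2 scale (SE 0.30, adjusted p 1.23e-09), and co-treated kidneys were above cisplatin kidneys by 1.31 on the log2 scale (SE 0.27, adjusted p 0.000246).

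Among members with counts in each cisplatin library, the largest fall was that of Cyp2d12. It read 55.8, 51.7, 64.2, 90.3 and 132 CPM in vehicle and 0.213, 0.452, 0.320, 0.321 and 0.311 CPM in cisplatin libraries, a log2 change of -7.91 (SE 0.54, adjusted p 1.08e-11). Co-treated libraries read 1.51, 1.92 and 8.39 CPM at the lowest, median and highest, between the other groups without overlap. Co-treated kidneys were at -4.39 (SE 0.38, adjusted p 1.50e-09) from vehicle on the log2 scale, and at -4.82 without replicate 6.

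Cyp2d26 had 267, 288, 212, 217 and 253 CPM in vehicle, 4.50, 9.51, 8.12, 10.1 and 15.5 CPM in cisplatin libraries and 106, 117 and 227 CPM (lowest, median, highest) in co-treated libraries. The cisplatin group lay below each other group. The difference of KW6002 effects was 4.32 (SE 0.31, adjusted p 1.03e-09). Cyp2d22, in the same chromosome 15 cluster, rose by 1.87 on the log2 scale with cisplatin while Cyp2d9 fell by 1.96.

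**Figure D4:**
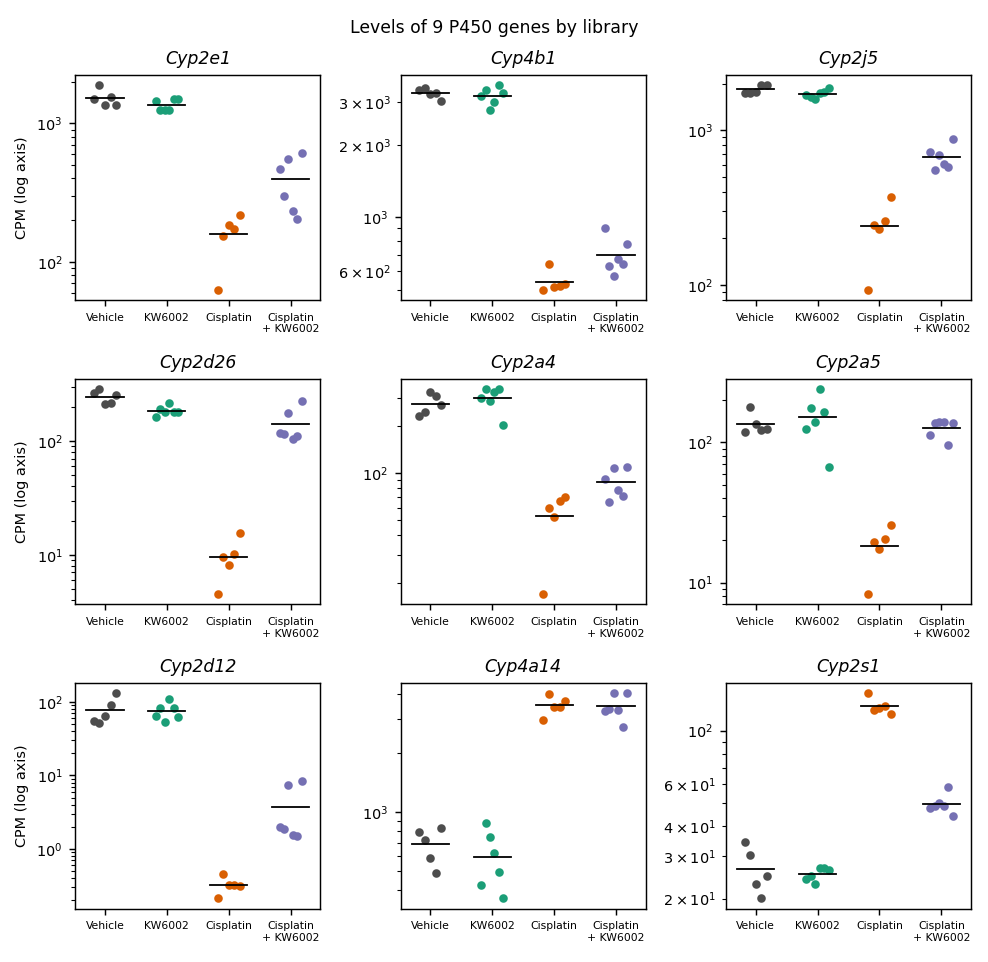
Level in CPM (log axis) of 9 P450 genes in each library (points, by group) with the group mean (line), in vehicle (n = 5), KW6002 (n = 6), cisplatin (n = 5) and co-treated (n = 6) kidneys. Co-treated Cyp2a5 overlaps with vehicle, where Cyp2a4 stays below it.

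Cyp2a4 and Cyp2a5, hydroxylases of steroids and coumarin with the promoters printed above, both fell with cisplatin. Cyp2a5 had 119, 179, 137, 123 and 125 CPM in vehicle, 8.28, 19.4, 17.5, 20.5 and 25.95 CPM in cisplatin libraries, and 95.6, 137 and 140.2 CPM in co-treated libraries at the lowest, median and highest. Cyp2a4 had 229, 245, 328, 307 and 272 CPM in vehicle, 16.9, 59.9, 52.4, 66.5 and 70.4 CPM in cisplatin libraries, and 65.5, 84.4 and 109 CPM in co-treated libraries. Co-treated Cyp2a5 overlapped with vehicle, and co-treated Cyp2a4 overlapped with cisplatin and lay below vehicle.

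Against cisplatin the co-treated change was 2.80 (SE 0.27, adjusted p 1.02e-08) on the log2 scale for Cyp2a5 and 0.71 (SE 0.24, adjusted p 0.0139) for Cyp2a4. The log2 ratio of Cyp2a5 to Cyp2a4 was -1.02 ± 0.35 in vehicle, -1.06 ± 0.38 in KW6002, -1.48 ± 0.27 in cisplatin and 0.56 ± 0.31 in co-treated kidneys (SD). This pair was chosen after its values were seen and its ratio was not tested. The transcripts shared 36.1% of the 50-base words of Cyp2a4, where reads could not be assigned uniquely.

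The members of these families that rose with cisplatin were Cyp2s1, Cyp3a13 and Cyp2d22. Cyp2s1 had 34.3, 30.5, 23.1, 20.1 and 24.8 CPM in vehicle, 143, 122, 125, 127 and 117 CPM in cisplatin libraries, and 44.2, 48.4 and 58.1 CPM (lowest, median, highest) in co-treated libraries. The vehicle, cisplatin and co-treated groups did not overlap. It rose by 2.26 on the log2 scale (SE 0.11, adjusted p 2.06e-14) and was lower in co-treated than in cisplatin kidneys, at -1.36 (SE 0.10, adjusted p 1.51e-10). Cyp3a13 rose from 0.738 ± 0.245 to 4.55 ± 1.59 CPM (SD, n = 5), and was at 1.80 ± 0.412 CPM (n = 6) with co-treatment. Cyp2b10 did not pass the threshold in any comparison. Beside the 10 members called higher with cisplatin, 4 of 5 fibroblast markers were called higher, where 12.1% of all genes were. The part of fibroblast content in these results was not tested.

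Cyp2f2 fell by 2.40 on the log2 scale (SE 0.36, adjusted p 3.66e-06) with cisplatin. The highest libraries of their groups were vehicle replicate 2 (5.85 CPM), KW6002 replicate 1 (6.09 CPM) and co-treated replicate 1 (2.43 CPM), which also had the highest fat markers of their groups, at 1380 CPM, 595 CPM and 374 CPM in sum. The part of fat in these values was not tested.

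The CYP1 genes, targets of the aryl hydrocarbon receptor, moved in opposite directions. Cyp1b1 had 39.6, 27.1, 30.8, 62.2 and 63.98 CPM in vehicle and 207, 172, 152, 147 and 191 CPM in cisplatin libraries. With co-treatment it had 68.2, 82.9 and 115 CPM at the lowest, median and highest, between the other groups without overlap. Its rise with cisplatin was 1.96 on the log2 scale (SE 0.20, adjusted p 7.31e-09). Over the alternatives that rise was 1.46 to 2.18, and the change of co-treated from vehicle was 0.49 to 1.15. The 2 vehicle mice numbered in the 500s, the series of all cisplatin-treated mice, had the highest vehicle levels, 62.2 and 63.98 CPM. Cyp1a1 fell from 1.11 ± 0.268 to 0.364 ± 0.174 CPM (SD, n = 5) and was at 0.339 ± 0.0968 CPM (n = 6) with co-treatment, a log2 change of -0.11 (SE 0.31, adjusted p 0.79) against cisplatin.

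Of the sterol and bile acid enzymes, 1 of 4 was called lower with cisplatin, beside 12.1% of all genes. Cyp7b1, an oxysterol hydroxylase, had 65.7, 62.8, 189, 186 and 146 CPM in vehicle and 11.4, 21.04, 18.1, 20.03 and 18.8 CPM in cisplatin libraries, 7.26-fold lower (adjusted p 6.71e-09). Its co-treated libraries read 22.9, 29.6 and 48.4 CPM at the lowest, median and highest, above each cisplatin library and below each vehicle library. Cyp39a1 and the sterol hydroxylase Cyp27a1 were at -0.25 and -0.21 on the log2 scale with cisplatin under TMM scaling, both past an adjusted p of 0.05. When libraries were scaled by their totals the values were -0.03 for Cyp39a1 (adjusted p 0.73) and 0.0053 for Cyp27a1 (adjusted p 0.959). The threshold was lost in 1 of 31 alternatives for Cyp39a1 and in 11 of 31 for Cyp27a1. With co-treatment Cyp39a1 was at -0.56 from vehicle and -0.31 from cisplatin on the log2 scale. Both changes passed an adjusted p of 0.05 in all 31 alternatives. Cyp46a1 did not pass the threshold in any comparison.

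The retinoic acid hydroxylases also moved in opposite directions. Cyp26b1 had 4.01, 6.69, 8.87, 6.58 and 15.4 CPM in vehicle and 46.5, 54.3, 33.9, 32.97 and 38.4 CPM in cisplatin libraries, a log2 change of 2.31 (SE 0.32, adjusted p 1.20e-06). Co-treated libraries read 12.7, 27.5 and 36.5 CPM at the lowest, median and highest, overlapping with both. Cyp26a1, with at most 15 counts in a library, fell by 1.96 on the log2 scale (SE 0.41, adjusted p 0.000174). Cyp2r1, a vitamin D hydroxylase, rose by 0.90 on the log2 scale (SE 0.24, adjusted p 0.00181), which lost the threshold when only mice numbered in the 500s were used. Cyp20a1, with no settled role, read 28.5 ± 1.44 CPM (n = 6) in co-treated and 19.3 ± 2.37 CPM (n = 5) in vehicle kidneys (adjusted p 1.03e-07).

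Cyp17a1 was the 1 member of steroid hormone synthesis. It had 0.162, 0.160, 0.302, 0.211 and 0.358 CPM in vehicle, 0.533, 0.502, 0.426, 0.214 and 0.368 CPM in cisplatin libraries, and 0.639, 1.27 and 1.41 CPM (lowest, median, highest) in co-treated libraries. Vehicle libraries held 4 to 11 counts of Cyp17a1 and cisplatin libraries 8 to 20. The co-treated group lay above vehicle and cisplatin, which overlapped. In KW6002 libraries it read 0.112, 0.366 and 0.835 CPM, which overlapped with the co-treated group, and the change of KW6002 from vehicle was 0.79 (SE 0.41, adjusted p 0.47). The difference of KW6002 effects was 0.64 (SE 0.53, adjusted p 0.357). Co-treated kidneys were above cisplatin by 1.43 on the log2 scale (SE 0.33, adjusted p 0.000849) and above vehicle by 2.18 on the log2 scale (SE 0.37, adjusted p 2.73e-05). Without co-treated replicate 6, the library with adrenal RNA, these changes were 1.37 (adjusted p 0.00231) and 2.12 (adjusted p 7.93e-05).

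Partner genes of the P450 system were followed as well. Of 9 electron donors and haem supply genes, 1 was called higher with cisplatin and 1 lower, a share near the 24.1% of all genes. Alas1, the first enzyme of haem synthesis, rose by 1.45 on the log2 scale (SE 0.10, adjusted p 7.76e-12), and Fdxr, the reductase of mitochondrial P450 enzymes, fell by 1.00 on the log2 scale (SE 0.09, adjusted p 8.36e-10). Ephx1, the microsomal epoxide hydrolase, rose by 4.27 on the log2 scale (SE 0.11, adjusted p 2.35e-18) with cisplatin and stood at 3.05 (SE 0.10, adjusted p 6.04e-16) from vehicle with co-treatment. Of 20 receptors and factors tested, 3 were called lower with cisplatin (Nr1h3, Nr0b2 and Esr1) and 0 higher, beside 12.1% of all genes in each direction. At an adjusted p below 0.05 in the edgeR fit, 11 were lower and 5 higher, beside 35.9% and 34.6% of all genes. Hnf4a fell by 0.59 on the log2 scale (SE 0.06, adjusted p 2.81e-08) with cisplatin and stood at -0.02 (SE 0.06, adjusted p 0.841) from vehicle with co-treatment. Ppara rose by 0.89 on the log2 scale (SE 0.11, adjusted p 1.24e-07) with cisplatin and by 0.30 on the log2 scale (SE 0.10, adjusted p 0.0154) with co-treatment. Of 5 close relatives whose symbols the pattern leaves out, 3 were called lower with cisplatin, beside 12.1% of all genes. Among these relatives, the lanosterol demethylase Cyp51 fell by 3.33 on the log2 scale (SE 0.15, adjusted p 9.74e-15).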

How the data were processed

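Kidney poly(A) RNA of 22 mice was sequenced in single reads of 50 bases. The authors deposited a table of raw read counts per gene, made per the labels with bcl2fastq 2.17.1.14, STAR and HTSeq 0.6.1p1 on build mm10. Reads with a unique alignment were counted, so sequence shared by near-identical genes adds none. The strand setting of the counting is not given in the sources used here. The table held 66 further columns without a name or values, which were not used.

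Counts were fitted with edgeR 4.0.16 in R 4.3.3 (quasi-likelihood test, TMM scaling, filterByExpr by group, 1 mean per group over the 22 libraries), and p-values were adjusted by Benjamini-Hochberg over 17131 genes. Libraries held 26471762 to 40510754 counts. Intervals and floors cover counting error only. Replicates are separate mice by their labels. Gene symbols, coordinates and exon lengths came from GENCODE M21. Named genes were the called members with the largest changes in each direction (8 for cisplatin against vehicle, 6 for co-treated against cisplatin, 5 for co-treated against vehicle, 4 for the difference of KW6002 effects), the 2 highest of each role per kilobase in vehicle, and others where a role was described. Members and lists were chosen with earlier results of these data known. The script was tested on simulated data. Alternatives were DESeq2 1.42.0, other scalings and filters, covariates for mouse number series, a replicate block and each library left out.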

Additional observations from a re-analysis of the deposited data

Results flagged for a closer look

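In 12 of the 180 gene and group pairs, 1 library stood far from the others of its group, where chance gives about 1 in 20. The highest library was cisplatin replicate 1 for Cyp4f18 (3.27 CPM), cisplatin replicate 5 for Cyp2j13 (15.9 CPM), cisplatin replicate 2 for Cyp4b1 (642 CPM), KW6002 replicate 2 for Cyp4f14 (1.88 CPM) and for Cyp2r1 (1.91 CPM), co-treated replicate 6 for Cyp2j7 (3.78 CPM), co-treated replicate 3 for Cyp4f17 (27.6 CPM) and co-treated replicate 1 for Cyp4f15 (1.25 CPM). For Cyp2f2 it was vehicle replicate 2 (5.85 CPM), KW6002 replicate 1 (6.09 CPM) and co-treated replicate 1 (2.43 CPM). The lowest library was KW6002 replicate 6 for Cyp46a1 (1.84 CPM).

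The KW6002 effect in cisplatin-treated mice differed from that without cisplatin, by the interaction term of the edgeR fit, for 19 members. The difference on the log2 scale was 7.70 for Cyp2c68, 4.52 for Cyp2c69, 4.32 for Cyp2d26, 3.57 for Cyp2d12, 3.22 for Cyp2j8, 2.90 for Cyp2j13, 2.63 for Cyp2a5, 2.16 for Cyp2j7, 2.16 for Cyp2c23, 2.12 for Cyp2j11, 2.05 for Cyp4f14, 1.59 for Cyp2j5, 1.48 for Cyp2e1 and 1.22 for Cyp2j9. It was -2.61 for Cyp4a32, -1.82 for Cyp3a13, -1.29 for Cyp2s1, -1.20 for Cyp4f18 and -1.11 for Cyp1b1. The values for Cyp2c68 and Cyp2c69 rest on 0 and 3 counts in the cisplatin libraries and depend on the prior count of the fit. Those for Cyp2j8 and Cyp4f14 rest on 2 to 12 and 3 to 11 counts per cisplatin library. With only mice numbered in the 500s, 14 members were called.

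Co-treated replicate 6 held 9.25 CPM of Cyp11a1, 15.5 CPM of Cyp11b1 and 14.5 CPM of Cyp21a1, genes outside the comparisons because too few libraries reached 10 counts.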

How the results depend on the processing

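P450 calls with cisplatin numbered 22 to 33 in the fits with the same thresholds, against 30. At an adjusted p below 0.05 without a fold threshold, P450 calls were 36 for co-treated against cisplatin, 35 for co-treated against vehicle and 31 for the difference of KW6002 effects. All genes then numbered 12085 with cisplatin, 9564 for co-treated against cisplatin, 3 with KW6002 alone, 10222 for co-treated against vehicle and 7312 for the difference. With 10 or more counts in every library, which tests fewer genes, calls were 12 P450 genes and 1043 genes for co-treated against cisplatin, 2749 genes with cisplatin and 1304 genes for co-treated against vehicle. For KW6002 alone, DESeq2 called 4 genes, the mouse number series as a covariate 4, and mice numbered in the 500s 1, none of them P450 genes. Leaving out 1 library gave 0 to 2 genes with KW6002 alone, 2 without vehicle replicate 3 and 1 without vehicle replicate 5. Scaling by library totals gave 2721 genes higher and 1629 lower with cisplatin (2069 and 2068 with TMM), moved the median of all genes to 0.20, and put Cyp27a1 at 0.0053 in place of -0.21.

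The labels do not say that replicate numbers pair mice, and deviations of same-numbered libraries from their group means correlated at -0.18 to 0.40 over all pairs of groups, so no pairing was assumed. With a replicate block P450 calls were 30, 21, 0, 20 and 19, in the order cisplatin, co-treated against cisplatin, KW6002, co-treated against vehicle, and difference. Of members past an adjusted p of 0.05, 35 of 41 with cisplatin, 33 of 36 for co-treated against cisplatin, 30 of 35 for co-treated against vehicle and 20 of 31 for the difference stayed past it in each fit that tested them. The fit with 10 or more counts in every library tested only 33, 27, 27 and 24 of these members.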
